A study of Mus musculus with 59 samples.

Results

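The 10 inositol cycle genes followed here were Impa1, Impa2, Bpnt1, Inpp1, Slc5a3, Slc5a11, Isyna1, Cdipt, Plcb1 and Itpka, a list of named genes drawn up with earlier results of these data known. All 10 were among the 51456 genes of the deposited table, and all 10 passed the filter of a mean of at least 10 normalized counts that left 16839 genes for testing. Prefrontal cortex RNA from C57BL/6J mice of both sexes was sequenced at postnatal day 25, after fluoxetine, lithium or vehicle had reached the pups through the mother's milk from day 3 to day 24. The mice were labelled HT, heterozygous for the Chd8-S62X allele, or WT, and no dose is given in the labels. Genotype, treatment and sex gave 12 groups of 5 libraries each, except 4 for HT-labelled females given fluoxetine, so that a genotype and treatment were represented by 10 libraries (9 for HT fluoxetine). No dam, litter or animal is named in the labels. P-values therefore reflect only how much these 59 libraries vary, which may be technical in part, and pups that shared a treated mother cannot be told apart from the treatment.

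Inositol is the sugar alcohol from which the membrane lipid phosphatidylinositol is made. Receptors that couple to phospholipase C break its phosphorylated form into diacylglycerol and inositol trisphosphate, and a chain of phosphatases returns the inositol phosphates to free inositol. Lithium at therapeutic levels inhibits magnesium-dependent phosphatases at the end of this chain, inositol monophosphatase and inositol polyphosphate 1-phosphatase. That inhibition is the basis of the inositol depletion account of its action in brain. Lithium also inhibits the related bisphosphate nucleotidase.

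Chd8 itself was higher in every HT-labelled library (5115 to 6626 normalized counts) than in any WT-labelled library (2828 to 4229). Under vehicle its mean was 5713 ± 382 (SD, n = 10) in HT-labelled and 3586 ± 194 (SD, n = 10) in WT-labelled libraries, a log2 difference of 0.67 ± 0.05 (SE; limma adjusted p = 1.71e-15). The labels do not say in which direction the allele should move Chd8 RNA, so the libraries are called HT-labelled and WT-labelled. Depth was even: the sum of normalized counts was 30.3 to 33.7, and the estimated number of reads 25.8 to 36.9, per library in units of 1e+06. Markers of excitatory neurons were abundant in all 59 libraries, while 5 olfactory bulb markers ranged in mean log2 level from 4.42 to 10.9 and 12 striatal markers from 8.01 to 11.2.

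The 10 genes differed widely in level. Per kilobase of annotated exon, the inositol trisphosphate 3-kinase Itpka had the highest mean over all libraries, 2250 normalized counts per kb, followed by Cdipt at 1392 and Plcb1 at 835. Among the phosphatases Bpnt1 stood at 760 per kb, Impa1 at 412, Inpp1 at 151 and Impa2 at 32.3. Isyna1, which acts in new inositol synthesis, stood at 332 per kb, the transporter Slc5a3 at 92.1 and the second transporter Slc5a11 at 6.04. The ranges over libraries of Plcb1 (716 to 947 per kb) and Bpnt1 (686 to 890 per kb) overlapped, as did those of Impa1 (345 to 490 per kb) and Isyna1 (234 to 412 per kb). Those of Itpka (1398 to 2942 per kb) and Cdipt (1179 to 1591 per kb) also overlapped, as did those of Impa2 (20.4 to 63.3 per kb) and Slc5a11 (1.40 to 26.9 per kb), and the other neighbours in this order did not.

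Lithium was accompanied by more RNA of Impa1, Slc5a3 and Bpnt1. Over both genotypes, these 3 of 10 genes rose and none fell, while 4.41% of all tested genes passed the threshold (adjusted p below 0.05) in either direction and 2.8% passed it as higher. The largest of the 3 differences was that of Slc5a3, 13.96%, and the smallest that of Bpnt1, 5.51%. The median of the 10 log2 differences was 0.01, beside -0.0004 over all genes tested. Within HT-labelled libraries Impa1 alone passed (1 of 10 genes, against 0.238% of all genes). In WT-labelled libraries none of the 10 passed in limma's test, against 0.214% of all genes. In each genotype 3 of 10 (Impa1, Bpnt1 and Slc5a3) had an unadjusted limma p below 0.05. Of all 16839 genes tested, 1710 in HT-labelled and 2006 in WT-labelled libraries had one. The difference between the lithium responses of the genotypes passed for none of the 10 genes and for 0% of all genes (386 genes had an unadjusted p below 0.05 and none of them was one of the 10), so no genotype difference in the response was shown.

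**Figure D1:**
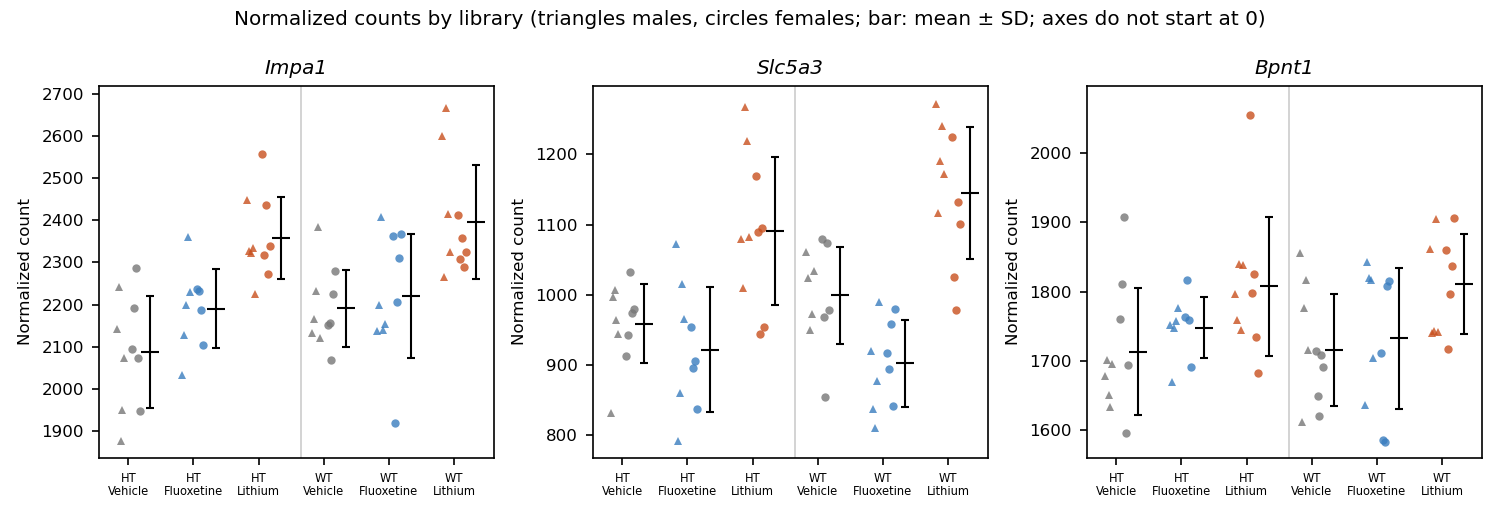
Normalized counts of Impa1, Slc5a3 and Bpnt1 (vertical axes, which do not start at 0) in each library, by labelled genotype and treatment (triangles males, circles females; bars give mean ± SD). For Impa1 all 10 lithium libraries of each genotype lie above the vehicle median of that genotype, and for Slc5a3 none of the 10 WT fluoxetine libraries lies above the vehicle median of that genotype.

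Impa1 encodes inositol monophosphatase 1, the enzyme that releases free inositol and the classical target of lithium. It lies on chromosome 3 (GRCm38, 10311956 to 10331439, minus strand), where 1 further annotated gene, Gm38303, overlaps it on the same strand. In HT-labelled vehicle libraries Impa1 ranged from 1876 to 2287 normalized counts with a median of 2084, and in HT-labelled lithium libraries from 2224 to 2558 with a median of 2331. In WT-labelled libraries it ranged from 2069 to 2385 (median 2160) under vehicle and from 2265 to 2665 (median 2341) under lithium. All 20 lithium libraries were above the median of the 20 vehicle libraries, and the ranges overlapped in both genotypes. Among WT-labelled females they did not, with 2289 to 2412 after lithium and 2069 to 2279 under vehicle. How many of all genes separated in this way was not counted. In that comparison 1104 of 16839 genes had an unadjusted limma p below 0.05.

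The log2 difference of Impa1, lithium minus vehicle, was 0.18 ± 0.04 (SE; adjusted p = 0.0162, limma with Benjamini-Hochberg adjustment) in HT-labelled and 0.13 ± 0.04 (SE; adjusted p = 0.102) in WT-labelled libraries, and 0.15 ± 0.03 (SE; adjusted p = 0.000187) over both. In HT-labelled libraries it had the eighth smallest p of all genes tested. Each of the 4 combinations of genotype and sex gave a value above 0, from 0.10 in WT-labelled females to 0.18 in HT-labelled males, and none of these 4 passed alone. The HT-labelled call was lost when the fit held the groups of that comparison alone (adjusted p = 0.199) and held without any 1 library (adjusted p from 0.00645 to 0.0455). After fluoxetine Impa1 differed from vehicle by 0.07 ± 0.04 in HT-labelled and by 0.02 ± 0.04 in WT-labelled libraries, with adjusted p of 0.906 and 0.874. It was above vehicle in all 4 combinations of genotype and sex. Directly against fluoxetine, lithium gave 0.11 ± 0.04 in each genotype. Neither value passed (limma adjusted p = 0.249 in HT-labelled and 0.0528 in WT-labelled libraries), so a difference of Impa1 between the drugs was not shown.

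Bpnt1 encodes bisphosphate 3'-nucleotidase, a lithium-inhibited relative of inositol monophosphatase that also removes the sulfation by-product phosphoadenosine phosphate. The gene lies on chromosome 1 (GRCm38, 185332149 to 185357777, plus strand). Its normalized counts were 1597 to 1908 (median 1695) under vehicle and 1683 to 2055 (median 1798) after lithium in HT-labelled libraries. In WT-labelled libraries they were 1612 to 1856 (median 1711) under vehicle and 1717 to 1906 (median 1817) after lithium. Of the 20 lithium libraries 19 were above the vehicle median, and the groups overlapped except in HT-labelled males and WT-labelled females, in which all 5 lithium libraries were above all 5 vehicle libraries.

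The difference of Bpnt1 was small and even between the genotypes, 0.08 ± 0.03 (SE; adjusted p = 0.367) in HT-labelled and 0.08 ± 0.03 (SE; adjusted p = 0.306) in WT-labelled libraries. Over both it was 0.08 ± 0.02 (SE; limma adjusted p = 0.0352). This call was narrow: it was lost (adjusted p from 0.05 to 0.0738) without any 1 of 12 libraries, replicate HT lithium female 1, HT vehicle female 4 or 5, HT vehicle male 4, WT lithium female 1 or 5, WT lithium male 1 or 4, WT vehicle female 2 or 3 or WT vehicle male 2 or 5. In addition, with no filter on low values the adjusted p was 0.0803, and with the astrocyte marker level as a covariate the difference was 0.05 with an adjusted p of 0.176; it was 0.06 with the inhibitory neuron and with the meningeal fibroblast level, with adjusted p of 0.227 and 0.144. After fluoxetine the difference was 0.03 ± 0.03 in HT-labelled and 0.01 ± 0.03 in WT-labelled libraries. Directly against fluoxetine, lithium gave 0.05 ± 0.03 and 0.07 ± 0.03, and neither passed (limma adjusted p = 0.71 and 0.234).

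Impa2 and Inpp1 complete the phosphatases, and neither passed in any comparison. Impa2 encodes the second inositol monophosphatase and lies on chromosome 18 (67289186 to 67322472), where B430212C06Rik overlaps it on the other strand; whether the counting used strand is not given in the sources used here. It was the most scattered phosphatase, from 110 to 340 normalized counts over the 59 libraries, with medians of 144 under vehicle, 146 after lithium and 150.5 after fluoxetine, and single libraries reached 301 to 340 in each treatment. Its lithium difference was -0.09 (95% interval -0.50 to 0.33) in HT-labelled and 0.13 (-0.28 to 0.55) in WT-labelled libraries, so that a difference of the size seen for Impa1 lies inside both intervals.

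Inpp1 encodes inositol polyphosphate 1-phosphatase, the step before the monophosphatases, on chromosome 1 (52785427 to 52817688, minus strand). It averaged 996 ± 168 (SD, n = 10) under vehicle and 996 ± 127 after lithium in HT-labelled libraries, and 1026 ± 112 and 967 ± 137 in WT-labelled libraries. In WT-labelled males all 5 lithium and all 5 fluoxetine libraries were below all 5 vehicle libraries, with log2 differences of -0.30 and -0.34 that share these vehicle libraries and did not pass (limma adjusted p = 0.385 and 0.283). In WT-labelled females the corresponding values were 0.12 and 0.08. How many of all genes separated fully in WT-labelled males was not counted. There 1569 (lithium) and 1584 (fluoxetine) of 16839 genes had an unadjusted limma p below 0.05. The lithium response of Inpp1 differed between males and females by -0.24 ± 0.12 (SE; unadjusted p = 0.0477), which did not pass over all genes in limma (adjusted p of 1).

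**Figure D2:**
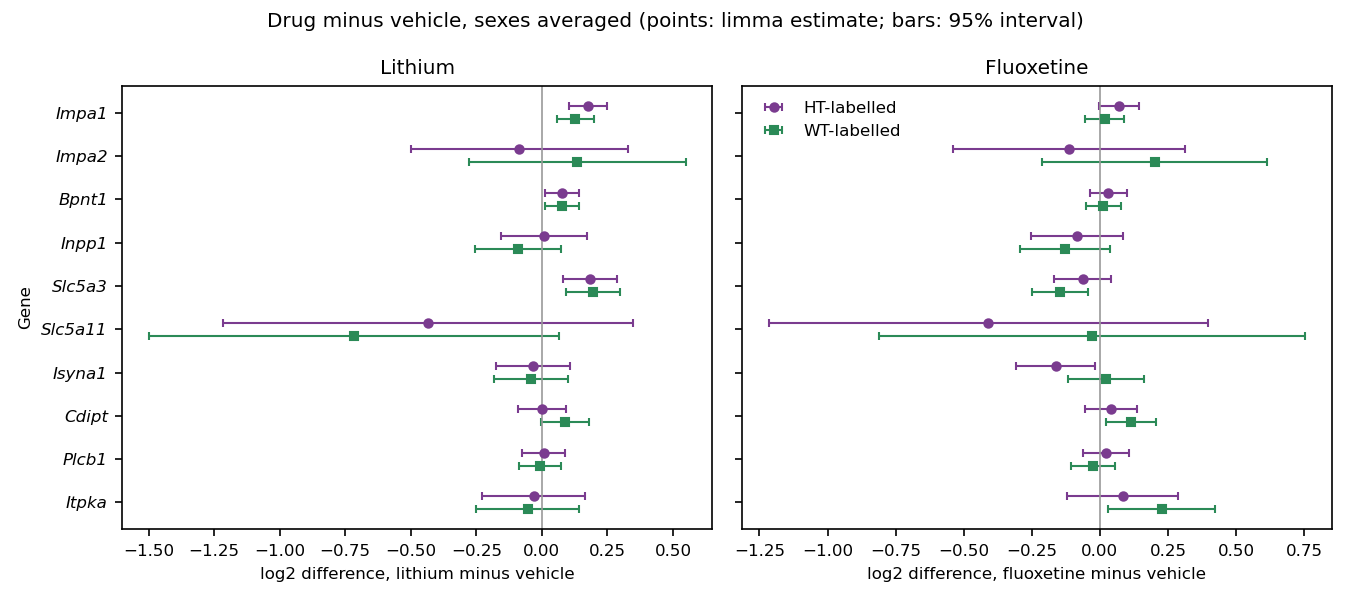
Log2 difference of each of the 10 genes from vehicle (horizontal axes) after lithium and after fluoxetine, in HT-labelled (circles) and WT-labelled libraries (squares); bars are 95% intervals of the limma fit with the sexes averaged. Lithium intervals of Impa1, Bpnt1 and Slc5a3 lie above 0 in both genotypes, and those of Slc5a11 and Impa2 are the widest.

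Slc5a3 encodes the sodium and myo-inositol cotransporter SMIT1, the main route of inositol into brain cells and a gene known to respond to osmotic stress. It lies on chromosome 16 (GRCm38, 92058322 to 92087473, plus strand). Its first exon is close to the start of Mrps6, a mitochondrial ribosomal protein gene on the same strand, 14 bases apart in RefSeq and 52 bases apart in GENCODE. Its promoter is shown because both genes lie downstream of it and only one of them passed after lithium; that of Bpnt1, the other called gene with a matched window, is shown beside it. RefSeq windows were matched for 7 of the 10 genes. Both sequences are from RefSeq on GRCm38.p6, plus strand, end before the first annotated transcript, and have GC boxes (GGGCGG) in capitals.
Slc5a3, chr16:92058072-92058269: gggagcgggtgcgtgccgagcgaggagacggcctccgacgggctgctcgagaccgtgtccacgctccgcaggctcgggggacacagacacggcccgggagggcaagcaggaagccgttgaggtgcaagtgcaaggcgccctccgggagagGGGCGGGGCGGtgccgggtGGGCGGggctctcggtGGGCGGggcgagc
Bpnt1, chr1:185331909-185332148: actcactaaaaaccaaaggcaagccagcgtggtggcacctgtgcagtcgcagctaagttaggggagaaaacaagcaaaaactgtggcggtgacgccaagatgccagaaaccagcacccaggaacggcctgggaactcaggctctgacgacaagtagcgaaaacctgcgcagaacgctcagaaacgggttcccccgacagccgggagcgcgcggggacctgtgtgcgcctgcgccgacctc
The Slc5a3 window held 4 GC boxes, the first 2 of which overlap by 1 base, and 24.4% of 32544 promoter windows of that length held at least 1 on either strand. The Bpnt1 window held none, against 31.5% of windows of its length. The letters TGACGTCA (cyclic AMP response element), CACGTG (E-box), TGANTCA (AP-1 site) and TGGAAA (core of the tonicity element) were in neither window on either strand, and 15.7% of windows of the Slc5a3 length held the last of these. Only these 198 bases at Slc5a3 and 240 at Bpnt1 were searched, so the absence says nothing about sites elsewhere.

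In HT-labelled libraries Slc5a3 ranged from 833 to 1033 normalized counts (median 969) under vehicle, from 945 to 1268 (median 1086) after lithium and from 792 to 1073 (median 906) after fluoxetine. In WT-labelled libraries it ranged from 855 to 1079 (median 1001) under vehicle, from 979 to 1272 (median 1152) after lithium and from 811 to 990.0 (median 906) after fluoxetine. Thus the 3 treatments were ordered fluoxetine, vehicle, lithium in both genotypes, with overlap between neighbours. Among males of either genotype all 5 lithium libraries were above all 5 vehicle libraries. Among females 3 of 5 were above the highest vehicle library in each genotype. How many of all genes separated fully among males was not counted. There 978 (HT-labelled) and 1569 (WT-labelled) of 16839 genes had an unadjusted limma p below 0.05.

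Slc5a3 rose after lithium over both genotypes, by 0.19 ± 0.04 on the log2 scale (SE; limma adjusted p = 0.00117). The genotypes gave 0.18 ± 0.05 (SE, limma adjusted p = 0.124) for HT and 0.19 ± 0.05 (SE, adjusted p = 0.077) for WT, neither of which passed alone. With the olfactory bulb marker level as a covariate both did (limma adjusted p = 0.0466 and 0.0273). With the replicate number as a block WT passed and HT did not (limma adjusted p = 0.0415 and 0.085). Against fluoxetine the lithium libraries were higher by 0.25 ± 0.05 (SE; adjusted p = 0.0322) in HT-labelled and by 0.34 ± 0.05 (SE; adjusted p = 5.21e-05) in WT-labelled libraries. In the latter Slc5a3 had the fifth smallest p of all genes. It was the 1 of 10 genes called in each of these comparisons, in which 0.0772% and 5.88% of all genes passed. The HT-labelled value lost its call (adjusted p from 0.0543 to 0.123) without any 1 of 11 libraries, namely replicates 1 to 4 of the fluoxetine females, 2 and 3 of the fluoxetine males, 1, 2 and 4 of the lithium females and 3 and 4 of the lithium males, and when the 8 libraries highest in striatal markers were left out (0.176), with no filter on low values (0.0742) and with the groups of the comparison alone (0.191).

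**Figure D3:**
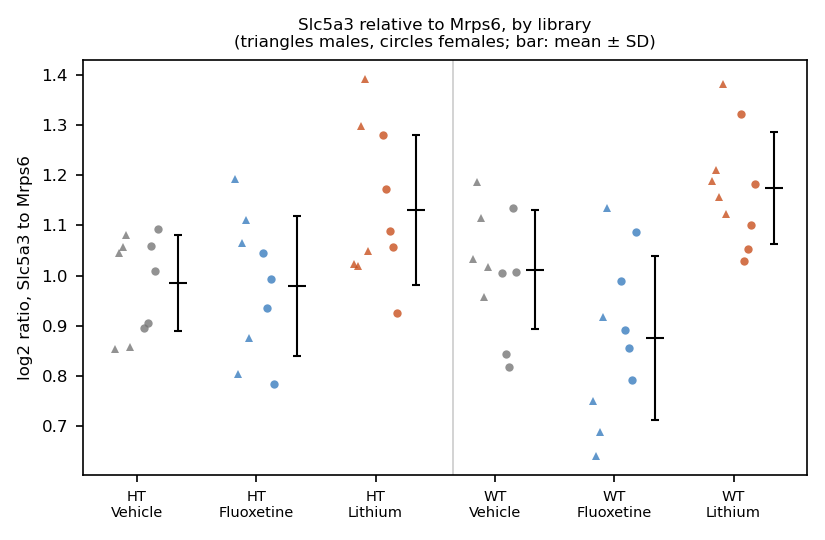
Log2 ratio of Slc5a3 to Mrps6 normalized counts in each library (vertical axis), by labelled genotype and treatment (triangles males, circles females; bars give mean ± SD). The lithium libraries average 1.13 in HT-labelled and 1.18 in WT-labelled mice, against 0.99 and 1.01 under vehicle.

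Mrps6, read from the same start region, did not pass after lithium. It averaged 483 ± 20.8 normalized counts (SD, n = 10) under vehicle and 496 ± 28.6 after lithium in HT-labelled libraries, and 495 ± 33.7 and 506 ± 30.3 in WT-labelled libraries, and the groups overlapped. The log2 ratio of Slc5a3 to Mrps6 was higher after lithium by 0.15 in HT-labelled (two-sided exact permutation p = 0.0224, adjusted over 4 tests p = 0.0448) and by 0.16 in WT-labelled libraries (exact permutation p = 0.00309, adjusted p = 0.0124). Of the 10 lithium libraries 7 and 10, in that order, were above the median of their vehicle group. After fluoxetine the ratio differed by -0.01 in HT-labelled (exact permutation p = 0.846) and by -0.14 in WT-labelled libraries (exact permutation p = 0.0549, adjusted p = 0.0732). The annotated spans of these genes overlap, and how reads were divided between them is not given in the sources used here.

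Slc5a11 and Isyna1, the other genes of inositol supply, did not pass in any comparison. Slc5a11 encodes SMIT2, a second inositol cotransporter, on chromosome 7 (123214780 to 123273253). At a mean of 16.7 normalized counts over all libraries (3.85 to 74.2) it was the lowest of the 10, and its lithium difference was -0.43 (95% interval -1.22 to 0.35) in HT-labelled and -0.72 (-1.50 to 0.07) in WT-labelled libraries. All 4 combinations of genotype and sex gave a value below 0 after lithium. In WT-labelled libraries the lithium group held none of the high values seen elsewhere, with 3.85 to 13.4 against 6.62 to 58.5 under vehicle.

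Isyna1 encodes inositol-3-phosphate synthase, which makes inositol-3-phosphate, the precursor of newly made inositol, from glucose 6-phosphate. Its lithium differences were -0.03 ± 0.07 in HT-labelled and -0.04 ± 0.07 in WT-labelled libraries. Under vehicle it ranged from 745 to 1003 normalized counts (median 908) in HT-labelled and from 660.0 to 822 (median 781) in WT-labelled libraries. These ranges overlapped, and the genotype difference of 0.21 ± 0.07 (SE) did not pass (limma adjusted p = 0.239). After fluoxetine it differed from vehicle by -0.16 ± 0.07 in HT-labelled and by 0.02 ± 0.07 in WT-labelled libraries (adjusted p = 0.906 and 0.922), and the interaction of -0.18 ± 0.10 did not pass either (adjusted p = 0.827).

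**Figure D4:**
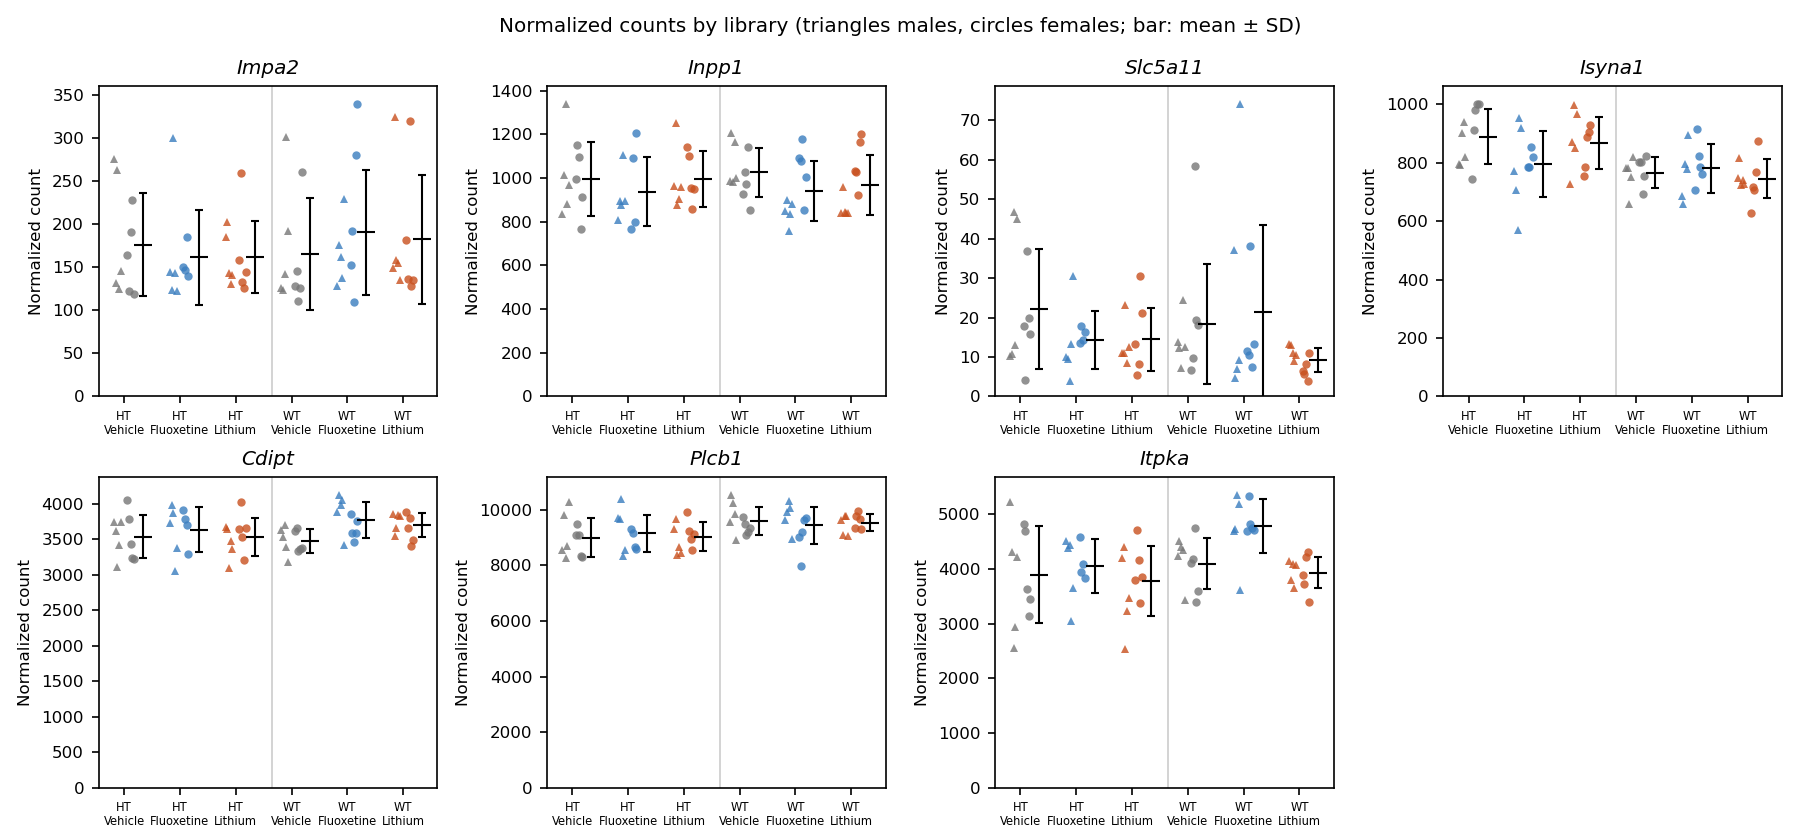
Normalized counts of the 7 genes that passed in no comparison (vertical axes start at 0) in each library, by labelled genotype and treatment (triangles males, circles females; bars give mean ± SD). Impa2 and Slc5a11 have single libraries far above their groups, and Itpka in the WT fluoxetine group averages 4788 against 4095 under vehicle.

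Cdipt, Plcb1 and Itpka stand on the lipid and signalling side of the cycle. Cdipt encodes phosphatidylinositol synthase, which joins free inositol to the lipid (chromosome 7, 126975914 to 126980501), and the antisense gene Cdiptos overlaps it. It averaged 3480 ± 172 normalized counts (SD, n = 10) under vehicle, 3697 ± 170 after lithium and 3773 ± 248 after fluoxetine in WT-labelled libraries, with log2 differences of 0.09 ± 0.05 and 0.12 ± 0.05 that share the vehicle libraries (limma adjusted p = 0.455 and 0.259). In HT-labelled libraries the values were -0.0002 ± 0.05 and 0.04 ± 0.05.

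Plcb1 encodes phospholipase C beta 1, the enzyme through which Gq-coupled receptors open the cycle in forebrain neurons (chromosome 2, 134786067 to 135475258), where 1 further gene overlaps it on the same strand and 2 on the other. Its lithium differences were 0.01 ± 0.04 in HT-labelled and -0.01 ± 0.04 in WT-labelled libraries, and those of fluoxetine 0.02 ± 0.04 and -0.03 ± 0.04. The 95% intervals for lithium, -0.07 to 0.09 and -0.09 to 0.07, leave out a difference as large as that of Slc5a3. Under vehicle HT-labelled libraries averaged 8988 ± 693 and WT-labelled libraries 9583 ± 512 normalized counts, a difference of -0.09 ± 0.04 with an adjusted p of 0.38 in limma.

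Itpka encodes inositol trisphosphate 3-kinase A, an enzyme of dendritic spines that turns inositol trisphosphate into the tetrakisphosphate (chromosome 2, 119742337 to 119751263). In WT-labelled libraries it ranged from 3388 to 4743 normalized counts (median 4204) under vehicle, from 3399 to 4307 (median 3980) after lithium and from 3622 to 5348 (median 4743) after fluoxetine. No lithium library reached the fluoxetine median. The difference of lithium from fluoxetine was -0.28 ± 0.10 (SE; limma adjusted p = 0.0761) and did not pass, and that from vehicle was -0.05 ± 0.10. In HT-labelled libraries the corresponding differences were -0.12 ± 0.10 and -0.03 ± 0.10.

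Under fluoxetine none of the 10 genes passed in limma's test in either genotype. No gene at all passed in HT-labelled libraries (0% of all genes; 857 had an unadjusted p below 0.05), and 0.19% passed in WT-labelled libraries. Over both genotypes again none of the 10 passed, against 0.0653% of all genes. At an unadjusted limma p below 0.05 stood 1 of 10 in HT-labelled libraries (Isyna1) and 3 of 10 in WT-labelled libraries (Slc5a3 at -0.15 ± 0.05, Cdipt and Itpka). Of all 16839 genes tested, 857 and 2104 stood there, in that order. Slc5a3 was below vehicle in all 4 combinations of genotype and sex, from -0.19 to -0.02. The lithium and fluoxetine comparisons use the same vehicle libraries, so their values are not independent.

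Nor did any of the 10 genes pass between genotypes under vehicle (against 0.202% of all genes), between the sexes under vehicle (0.0713%), or for the interactions of fluoxetine with genotype and lithium with sex (0% each; 1040 and 438 genes at an unadjusted p below 0.05, of the 10 only Inpp1 in the latter). In the 8 single comparisons of a drug with vehicle in 1 genotype and sex, none of the 10 passed in limma, against 0.0297% of all genes for fluoxetine in WT-labelled males and 0% in the other 7. Up to 3 of the 10 had an unadjusted limma p below 0.05 there, beside 544 to 1584 of all 16839 genes. Of the other 9 genes, the sex difference in the lithium response (males minus females) ran from -0.14 ± 0.29 for Impa2 to 0.30 ± 0.55 for Slc5a11, and it was 0.12 ± 0.07 for Slc5a3.

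The rest of the pathway was read from 7 lists of related genes. Within a genotype no gene of these lists outside the 10 passed against vehicle, after either drug. Over both genotypes lithium gave 4 calls among the 89 further genes tested, 4.49% of them, beside 4.41% of all genes. They are named here after their values were seen. In phosphoinositide resynthesis (28 further genes tested, 2 higher and 1 lower; median of the 28 at 0.01) the transfer protein Pitpnc1 rose by 0.15 ± 0.05 and the diacylglycerol kinase Dgkq by 0.14 ± 0.03, while Dgkb, another diacylglycerol kinase, fell by 0.10 ± 0.03. In the phospholipases C (13 further genes, 1 higher) the catalytically inactive relative Plcl1 rose by 0.12 ± 0.03. None of 15 further inositol phosphatases, 9 inositol phosphate kinases, 14 genes of Gq proteins and receptors and 8 genes of the osmolyte response passed there in limma. Nor did the 2 further genes of the inositol supply list, Slc2a13 and Mrps6. The latter was listed as the neighbour of Slc5a3 and is no inositol gene.

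Between the drugs in WT-labelled libraries, 2 genes of these lists outside the 10 were higher and 3 lower after lithium than after fluoxetine, also named after their values were seen. None of these passed against vehicle in WT-labelled libraries after either drug, so the comparison does not tell which drug moved them. The fluoxetine differences from vehicle of Nfat5, Ppip5k1 and Gna11 are given below. These 5 were 5.62% of the 89, beside 5.88% of all genes. Nfat5, the transcription factor of the tonicity response that is known to drive Slc5a3, was higher by 0.17 ± 0.05 (SE; limma adjusted p = 0.0194), and Ppip5k1, a kinase that makes inositol pyrophosphates, by 0.10 ± 0.03 (SE; adjusted p = 0.042). The transfer protein Pitpnm1 was lower, at -0.15 ± 0.05, as were the G protein subunit Gna11, at -0.12 ± 0.03, and the aldose reductase Akr1b3, at -0.11 ± 0.03. Nfat5 stood at 4685 normalized counts under vehicle, 4716 after lithium and 4218 after fluoxetine. In HT-labelled libraries none of the lists' other genes passed between the drugs.

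In each list the further genes with the smallest p after lithium within a genotype, 2 per list except 1 for the phosphatases in WT-labelled libraries, had the following log2 differences, none of which passed. Among phosphatases these were Synj2 (0.12) and Minpp1 (-0.05) in HT-labelled and Inpp5k (0.08) in WT-labelled libraries. Among inositol phosphate kinases they were Ppip5k1 (0.06) and Ipmk (-0.05) in HT-labelled and Ip6k2 (0.07) and Ipmk (0.06) in WT-labelled libraries. In resynthesis Dgkq gave 0.13 and Pitpnc1 0.17 in HT-labelled, and Dgkq 0.14 and Dgkb -0.11 in WT-labelled libraries. Phospholipases C were led by Plcl1 (0.15) and Plcb3 (-0.11) in HT-labelled and by Plch2 (-0.14) and Plcb3 (-0.17) in WT-labelled libraries. Receptors were led by Grm5 (0.12) and Chrm1 (0.07), and by Htr2c (-0.20) and Adra1a (0.06). Beyond Mrps6, inositol supply held Slc2a13, a proton-coupled inositol transporter, at 0.04 and 0.06, and the osmolyte list gave Aqp4 (-0.18 and -0.22) and Akr1b3 (-0.03 and -0.07).

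After fluoxetine the same rule named Inpp5e (-0.10) and Inpp4a (0.06) in HT-labelled and Minpp1 (0.08) and Impad1 (-0.04) in WT-labelled libraries among the phosphatases. The kinases were Itpk1 (0.11) and Itpkb (-0.12), and Ppip5k1 (-0.08) and Ip6k1 (0.04). Resynthesis gave Pitpnc1 (0.11) and Dgkd (-0.08), and Pi4ka (0.13) and Tamm41 (0.22). Among the phospholipases C they were Plcb2 (-0.20) and Plcb3 (-0.16), and Plcd1 (0.18) and Plch1 (0.13). Receptors and G proteins gave Adra1a (-0.10) and Adra1b (0.20), and Gna11 (0.10) and Htr2c (-0.40). For osmolyte genes the values were -0.15 for Slc6a6 and -0.23 for Aqp4, and -0.16 for Nfat5 and -0.11 for Slc38a2, while Slc2a13 stood at 0.08 and 0.01. No gene of these lists passed, and 7 and 8 of the 9 osmolyte genes, Slc5a3 included, had values below 0 in HT-labelled and WT-labelled libraries (medians -0.08 and -0.07, beside 0.004 and -0.003 over all genes).

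**Figure D5:**
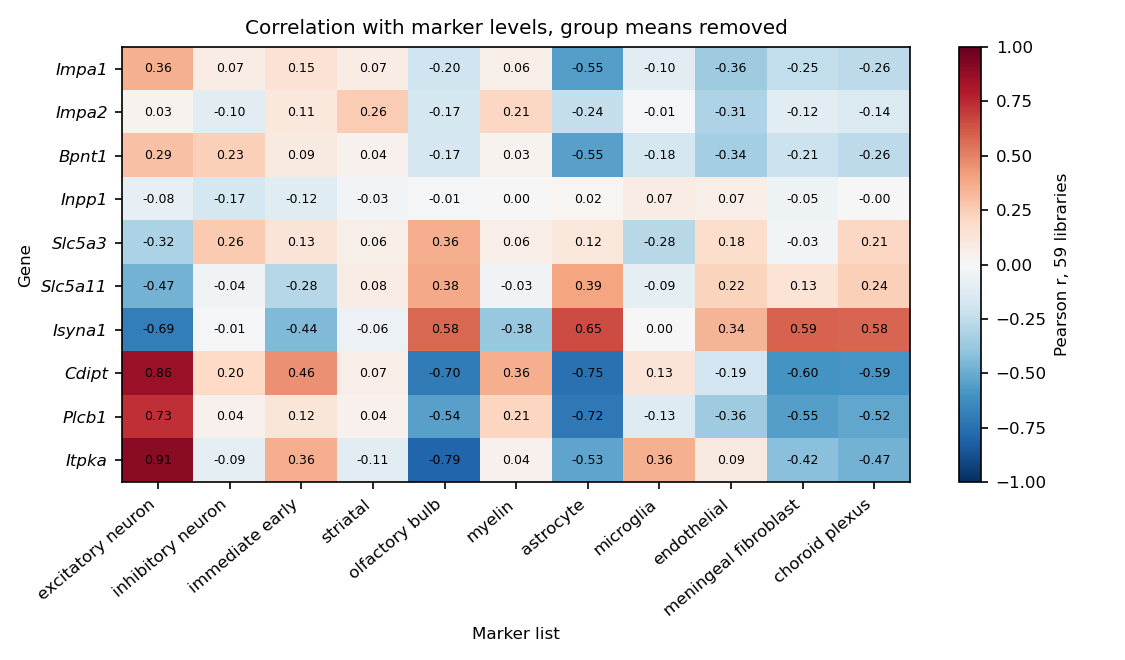
Pearson correlation over 59 libraries of each of the 10 genes (rows) with the mean log2 level of each of 11 marker lists (columns), after the mean of each group was removed from both. Itpka, Cdipt and Plcb1 follow the excitatory neuron markers (0.91, 0.86 and 0.73) and run against the olfactory bulb markers (-0.79, -0.70 and -0.54). Against the astrocyte markers run Cdipt (-0.75), Plcb1 (-0.72), Impa1 and Bpnt1 (both -0.55) and Itpka (-0.525).

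Within groups, several of the 10 genes moved with the marker levels of the library. Cell proportions were not measured, and in bulk tissue fewer cells of a type and less RNA per cell cannot be told apart. Of 110 pairs of a gene and a marker list, 39 passed (permutation test of Pearson's r, 100000 resamples, Benjamini-Hochberg over the 110). Of these, 32 also passed for the rank correlation rho. The resampling took no account of the group means removed beforehand, so its p-values are too small and passes near the threshold are uncertain. Itpka correlated with the excitatory neuron markers at r = 0.91 (rho = 0.85), Cdipt at r = 0.86 (rho = 0.87) and Plcb1 at r = 0.73 (rho = 0.75), each with an adjusted permutation p of 7.86e-05 (unadjusted 1e-05, the smallest these resamples can give). Without the 2 libraries farthest from the median marker level the 3 values of r were 0.89, 0.87 and 0.72. Itpka, Cdipt and Plcb1 also ran against the olfactory bulb markers (r = -0.79, -0.70 and -0.54) and the astrocyte markers (r = -0.525, -0.75 and -0.72), and all of these passed. Isyna1 went the other way, with r = -0.69 (rho = -0.73) for excitatory neuron and 0.65 (rho = 0.68) for astrocyte markers.

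Impa1 followed the excitatory neuron markers more weakly, at r = 0.36 (rho = 0.38, adjusted permutation p = 0.0173, r = 0.27 without the 2 farthest libraries). Slc5a3 ran weakly against them, at r = -0.32 (rho = -0.26, r = -0.30 without the 2 farthest libraries). Its adjusted permutation p was 0.0426 for r and 0.12 for rho, so rho did not pass and the pass of r is uncertain. Bpnt1 did not pass for these markers (r = 0.29, adjusted permutation p = 0.069). Impa1 and Bpnt1 correlated with the astrocyte markers at r = -0.55 each (rho = -0.52 and -0.55; adjusted permutation p = 7.86e-05; -0.46 and -0.51 without the 2 farthest libraries). Slc5a3 correlated with the olfactory bulb markers at r = 0.36 (rho = 0.37; adjusted permutation p = 0.0172; 0.29 without the 2 farthest libraries). Inpp1 followed none of the 11 lists.

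For several of these lists most genes had values of 1 sign after lithium, while the ranges of their mean levels overlapped with vehicle; no list difference was tested. None of the 6 astrocyte markers in HT-labelled and 1 of 6 in WT-labelled libraries had a value above 0 (medians -0.06 and -0.07; mean log2 level 12.2 to 12.5 under vehicle and 12.1 to 12.4 after lithium in HT-labelled, 12.2 to 12.3 and 12.02 to 12.3 in WT-labelled libraries). All 5 olfactory bulb markers were below 0 in both genotypes (medians -0.32 and -0.40; 4.63 to 10.9 against 5.07 to 10.7, and 4.81 to 10.2 against 4.88 to 9.37), all 12 striatal markers were above 0 (medians 0.21 and 0.27) and so were 5 and 7 of 7 immediate early genes (medians 0.10 and 0.31). All 6 meningeal fibroblast markers were below 0 (medians -0.18 and -0.48; mean log2 level 9.43 ± 0.29 under vehicle and 9.23 ± 0.27 after lithium in HT-labelled, 9.50 ± 0.46 and 9.01 ± 0.27 in WT-labelled libraries; SD, n = 10). Of 6 inhibitory neuron markers 4 in HT-labelled and all 6 in WT-labelled libraries were above 0 (11.4 ± 0.07 and 11.5 ± 0.05, and 11.4 ± 0.10 and 11.5 ± 0.07). No marker of these lists was at 0 in all libraries. With the astrocyte level as a covariate the lithium difference over both genotypes was 0.12 for Impa1 (limma adjusted p = 0.00139) and 0.20 for Slc5a3 (adjusted p = 0.00122), both still called. With the olfactory bulb level it was 0.15 (adjusted p = 0.000137) and 0.20 (adjusted p = 0.000226), and without the 8 libraries highest in striatal markers 0.17 (adjusted p = 0.000417) and 0.20 (adjusted p = 0.00244). The same 3 settings gave Bpnt1 0.05, 0.08 and 0.10. With the immediate early level as a covariate the values were 0.15 for Impa1, 0.18 for Slc5a3 and 0.07 for Bpnt1, all 3 called. With the inhibitory neuron level they were 0.15 (adjusted p = 0.00393), 0.15 (adjusted p = 0.0277) and 0.06 (adjusted p = 0.227), and with the meningeal fibroblast level 0.13 (adjusted p = 0.00318), 0.19 (adjusted p = 0.00571) and 0.06 (adjusted p = 0.144), so that Impa1 and Slc5a3 were called in both and Bpnt1 in neither.

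Among themselves the 10 genes formed no single pattern across the 59 libraries once group means were removed. The highest correlation was that of Cdipt with Itpka (r = 0.76), followed by Cdipt with Plcb1 (0.67), and the lowest that of Isyna1 with Cdipt (-0.70). Impa1 and Bpnt1 correlated at 0.53, while Slc5a3 correlated with Impa1 at 0.05 and with Bpnt1 at 0.24, so the 3 genes that rose after lithium were not 1 group within treatments. These values describe whole libraries, which differed within groups in olfactory bulb and striatal marker levels, and the part this played was not tested.

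Of 13905 genes with a mean of at least 50 normalized counts, the nearest to Impa1 by the same measure were Dnaja1 (r = 0.78), Gm49336 (0.76) and Acsl4 (0.74). Bpnt1 lay nearest to Psmd1 and Dnaja1 (0.70 each) and Fam126b (0.70). For Slc5a3 they were Slc38a1 (0.64), Bbx (0.62) and Ptpn12 (0.59). Itpka lay nearest to Stx1a, Camk2a and Olfm1 (0.96 each), Cdipt to Tmem59l (0.91), Smpd1 and Slc7a8 (0.89 each), and Plcb1 to Mtpn (0.90), Micu3 and Ptprn2 (0.89 each). Isyna1 was nearest to Nt5e (0.79), Gabpb2 and the astrocyte gene Gfap (0.75 each), and Slc5a11 to Hist3h2a (0.63), Armcx6 (0.61) and Ddah2 (0.60). Impa2 and Inpp1 had no near neighbour, with at most 0.50 to Nexn and to Gm5141. Their next values were 0.46 (Ndufaf7) and 0.45 (Bicd1) for Impa2, and 0.47 (Msl3) and 0.44 (A4galt) for Inpp1.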

How the data were processed

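Normalized counts, counts divided by a factor per library (a normalized signal that need not be whole), of 51456 genes in 59 libraries were taken from the single table that the authors deposited. Per the labels' protocols, libraries came from a TruSeq stranded mRNA kit; Salmon 0.11.2, R 3.6.0, DESeq2 1.19.11 and GRCm38 are named in the submitters' processing notes, without their roles. No count model was fitted. limma 3.58.1 (R 4.3.3) was run on log2(value + 1), which understates changes of low genes, for 16839 genes with a mean of at least 10, with 12 group means, trend and robust shrinkage, Benjamini-Hochberg adjustment over all genes and a threshold of 0.05; it was tested on simulated data. The value of 1 read was estimated from the most frequent low value of each library. Ratios were compared by exact permutation tests (numpy 2.4.6), and the ranks for rho were taken with scipy 1.17.1. The 10 genes and all lists were chosen with earlier results of these data known. Named were the 10 genes, per list the 2 others of smallest p within a genotype, and the 3 nearest genes of each; 1 gene that this rule names is not reported here. Positions and exon lengths are from GENCODE on GRCm38. Alternatives covered scaling, filter, pseudocount, shrinkage, groups fitted, replicate block, marker covariates and libraries left out.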

Additional observations from a re-analysis of the deposited data

Results flagged for a closer look

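Single libraries stood apart from the others of their group, by Dixon's test at the 95% level, in 15 of 120 checks of a gene in a group; chance gives about 1 in 20. Impa2 held 5 of them, all at the upper end: 299.7 normalized counts in HT fluoxetine male replicate 3 (others 122 to 144), 258.9 in HT lithium female replicate 2 (others 126 to 158), 319.1 in WT lithium female replicate 3 (others 129 to 182), 324.4 in WT lithium male replicate 2 (others 135 to 159) and 260.5 in WT vehicle female replicate 5 (others 110 to 145). The library of WT lithium male replicate 2, which also had the highest striatal marker level (11.2), stood apart for Inpp1 (958, others 838 to 846) and Isyna1 (818, others 725 to 748) as well, and WT vehicle female replicate 5 was also among the 8 libraries highest in striatal markers; the part of the striatal RNA was not tested.

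Slc5a11 stood high in HT lithium male replicate 3 (23.08), WT fluoxetine female replicate 3 (38.05) and WT vehicle female replicate 3 (58.54). Inpp1 stood high in HT lithium male replicate 2 (1252), and Impa1 in WT fluoxetine male replicate 3 (2408, others 2138 to 2199). Bpnt1 stood low in HT fluoxetine male replicate 2 (1670). Itpka was high in WT fluoxetine female replicate 2 (5331) and low in WT vehicle male replicate 5 (3429).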

How the results depend on the processing

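The calls of Impa1 and Slc5a3 for lithium over both genotypes, and of Slc5a3 for lithium against fluoxetine in WT-labelled libraries, held in all 14 other settings and without any 1 library. Covariates for astrocyte, immediate early, inhibitory neuron and meningeal fibroblast markers were added after seeing the data. In HT-labelled libraries lithium gave 0 called genes with the compared groups fitted alone and 2 (Impa1, Slc5a3) with the olfactory bulb covariate; in WT-labelled libraries it gave 1 (Slc5a3) with the replicate block and with the olfactory bulb covariate, and fluoxetine gave 1 (Cdipt) with the astrocyte covariate. Lithium against fluoxetine in HT-labelled libraries gave 0 with no filter, with the groups alone and when the 8 high striatal libraries were left out, and 0 to 1 with 1 library left out. In WT-labelled libraries the same comparison gave 2 with the groups alone (Slc5a3, Itpka), 3 with the replicate block and with the olfactory bulb covariate (Impa1, Slc5a3, Itpka), 2 without the high striatal libraries (Impa1, Slc5a3), 3 with the astrocyte covariate (Slc5a3, Cdipt, Itpka), 2 with the immediate early and with the meningeal covariate (Slc5a3, Itpka), and 1 to 2 with 1 library left out; Impa1 was added without fluoxetine female 1, 4 or 5, male 3 or lithium male 2 or 5, Itpka without fluoxetine male 5. Over both genotypes lithium kept 2 to 3 called genes, Bpnt1 being the one lost. The cause was not tested.

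Values near 0 changed sign: for lithium in HT-labelled libraries Isyna1, at 0.0123 without the high striatal libraries and 0.0429 and 0.0178 with the astrocyte and meningeal covariates, and Plcb1, at -0.0003, -0.0415 and -0.0211 with the olfactory bulb, astrocyte and meningeal covariates. In WT-labelled libraries Isyna1 gave 0.0433, 0.0027 and 0.0891 with the astrocyte, immediate early and meningeal covariates. Over both genotypes they were Impa2 (-0.0241, -0.0636 and -0.0292 with the striatal, astrocyte and meningeal covariates), Isyna1 (0.0431 and 0.0535) and Cdipt (-0.0168 in both) with the astrocyte and meningeal covariates and Plcb1 (0.0028 without the high striatal libraries). For fluoxetine Cdipt gave -0.0067 and -0.0093 in HT-labelled libraries with the astrocyte and meningeal covariates, and Isyna1 -0.0034 and -0.0141 in WT-labelled libraries with the myelin and astrocyte covariates. With 1 library left out, lithium in HT-labelled libraries gave Inpp1 -0.0349 to 0.0626, Cdipt -0.0227 to 0.0247, Plcb1 -0.011 to 0.0283 and Itpka -0.0997 to 0.0297; in WT-labelled libraries Plcb1 gave -0.0241 to 0.0062; over both, Impa2 gave -0.0328 to 0.0775 and Plcb1 -0.0089 to 0.0108; and fluoxetine in WT-labelled libraries gave Bpnt1 -0.0024 to 0.026 and Isyna1 -0.0082 to 0.0475.

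No label explains the replicate numbers, and the main fit left them out. Same-numbered pairs correlated above 0.1 more often, 123 of 319 against 307 of 1276 other-numbered pairs. Mean r was 0.08 (-0.37 to 0.55) and -0.02. Of 59 libraries 19 correlated best with their own number, and number 1 had the highest immediate early level in 10 of 12 groups. The data only hint at pairs. Counts of called genes over all genes moved by over 1.5 times as follows. Lithium over both genotypes (742) gave 483 with no filter and 394 and 1217 with the inhibitory neuron and olfactory bulb covariates. Lithium in HT-labelled libraries (40) gave 0 with the groups alone, 18 with no filter, 21 without the high striatal libraries, 70 with the block, 70, 72 and 107 with the immediate early, myelin and olfactory bulb covariates. Lithium in WT-labelled libraries (36) gave 16 with no filter, 144 with the block, 6, 21, 89 and 106 with the inhibitory neuron, meningeal, myelin and olfactory bulb covariates. Lithium against fluoxetine in HT-labelled libraries (13) gave 5 with the groups alone and without the high striatal libraries, 6 with no filter, 35 with the block, and 21, 22, 36, 51, 80 and 89 with the meningeal, myelin, inhibitory neuron, immediate early, astrocyte and olfactory bulb covariates; in WT-labelled libraries (990) it gave 591 with no filter and 1679 and 3123 with the olfactory bulb and astrocyte covariates. Fluoxetine in WT-labelled libraries (32) gave 0 with the groups alone, 5 without the high striatal libraries, 8 with no filter, 17 without trend and robust shrinkage, 113 with the block, and 19, 91, 106, 107 and 519 with the meningeal, olfactory bulb, immediate early, myelin and astrocyte covariates. With 1 library left out they ranged, in this order, over 561 to 881, 12 to 63, 10 to 56, 4 to 25, 631 to 1345 and 9 to 230. TMM shifted the all-gene median by up to 0.00703.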
